A study of Mus musculus with 5 samples.

Results

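The carbonic anhydrase genes Car2, Car3, Car4, Car7, Car8, Car9, Car12, Car13 and Car14 were followed on 5 Affymetrix expression arrays of mouse embryonic stem cells. They are 9 of the 16 carbonic anhydrase genes measured and of 18193 genes in all, chosen by name, and the 7 further family genes served for comparison. A member's values came from probe sets annotated with that symbol alone, and where several existed, from the probe set whose mean across the 5 arrays was highest. The 9 genes had 21 probe sets in all. That mean level chose the probe set, and the family itself was picked with earlier results on Car3 and Car4 known, so the differences below describe the family and are not independent evidence for it.

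The mutant cells carried a Trip12 mutation on both alleles (Trip12 mut/mut, 3 arrays), and the cells they were set against were wild type (WT, 2 arrays). Trip12 encodes an E3 ubiquitin ligase. Cells of both genotypes belonged to the E14 line and grew on a feeder layer of mouse embryo fibroblasts in medium with serum replacement, a little fetal bovine serum and leukaemia inhibitory factor (LIF), per the labels. Which lesion the Trip12 allele carries, whether each genotype was 1 clone, and whether feeder cells were taken off before RNA extraction are unstated in the labels. They call the arrays biological replicates without saying that cultures were separate, so p-values measure only the spread between these arrays, which may be technical.

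Carbonic anhydrases are zinc enzymes that interconvert carbon dioxide and water with bicarbonate and a proton, and so link respiration, pH and ion transport. The mammalian isozymes differ mainly in place: Car1, Car2, Car3, Car7 and Car13 are cytosolic, Car5a and Car5b mitochondrial, Car6 secreted, and Car4, Car9, Car12, Car14 and Car15 sit at the cell surface with an extracellular catalytic domain. Car8, Car10 and Car11 keep the fold but lack the catalytic activity. Values below are deposited log2 values from RMA (background correction, normalisation between arrays and 1 summary value for each probe set), so a difference of 1 is 2-fold.

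The 3 mutant arrays were not alike. The Trip12 probe set with the highest mean read 10.18, 12.09 and 12.57 on the arrays labelled Trip12 mut/mut replicates 1, 2 and 3, against 10.17 and 10.25 in WT. Of the 7 Trip12 probe sets, 4 lay above both WT arrays on replicates 2 and 3, and 1 lay below them, reading 6.11, 5.69 and 5.24 on the mutant arrays, against 6.11 and 6.10 in WT. Over 45037 probe sets the array labelled replicate 1 differed by more than 2-fold from the WT arrays at 0 probe sets, whereas replicate 2 differed at 475 and 545 and replicate 3 at 293 and 297. Between replicates 2 and 3, 9 probe sets passed that fold. Markers of fibroblasts, the feeder cell type, moved with this split. The mean of 17 fibroblast markers was 10.66 on the array labelled replicate 1, 11.13 on replicate 2 and 11.16 on replicate 3, against 10.67 and 10.68 in WT. The mean of 10 embryonic stem cell markers was 11.55, 11.35 and 11.52 on the mutant arrays, against 11.55 and 11.56 in WT, and these 10 markers lay above the median of all probe sets, 5.52, on each array. The array labelled replicate 1 thus lay with the WT arrays, against its label. Whether that label holds was not tested, and any difference over 5 arrays includes this array. The difference of each member is therefore given over 5 arrays as labelled and without that array, and differences of other genes without it unless stated. In such bulk RNA, fewer cells of a type and less RNA per cell cannot be told apart.

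Among the 9 members, 4 were lower on Trip12 mut/mut replicates 2 and 3 than in WT (Car4, Car3, Car2 and Car14), Car9 and Car13 were higher, and Car7, Car8 and Car12 showed no such shift. None of the 9 passed over all 5 arrays. In that fit (limma across genes, Benjamini-Hochberg adjusted p below 0.05) 0 of 18193 genes were called in either direction, a background of 0.0%. At an unadjusted p below 0.05 there were 214 genes, among them 0 members. The differences of the 4 lower members over 5 arrays were -1.57 for Car4, -1.37 for Car3, -0.82 for Car2 and -0.55 for Car14, each with an adjusted p of 0.748 in limma. Without the array labelled replicate 1, limma again called 0 of 18193 genes (0.0%), with 3730 genes and 6 members at an unadjusted p below 0.05. A reduced comparison used the same 4 arrays and the 11626 genes with at least 2 of them above 5.52, and there Car2, Car3 and Car14 fell while 0 members rose. In it 1.34% of the genes tested were called lower and 3.29% higher. Of the 9 members 7 met the filter. Car4 was called lower as well, but met the filter only through its WT arrays, so its call is not counted here. P-values without the array labelled replicate 1 are too favourable, because its own values were the reason to leave it out.

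**Figure D1:**
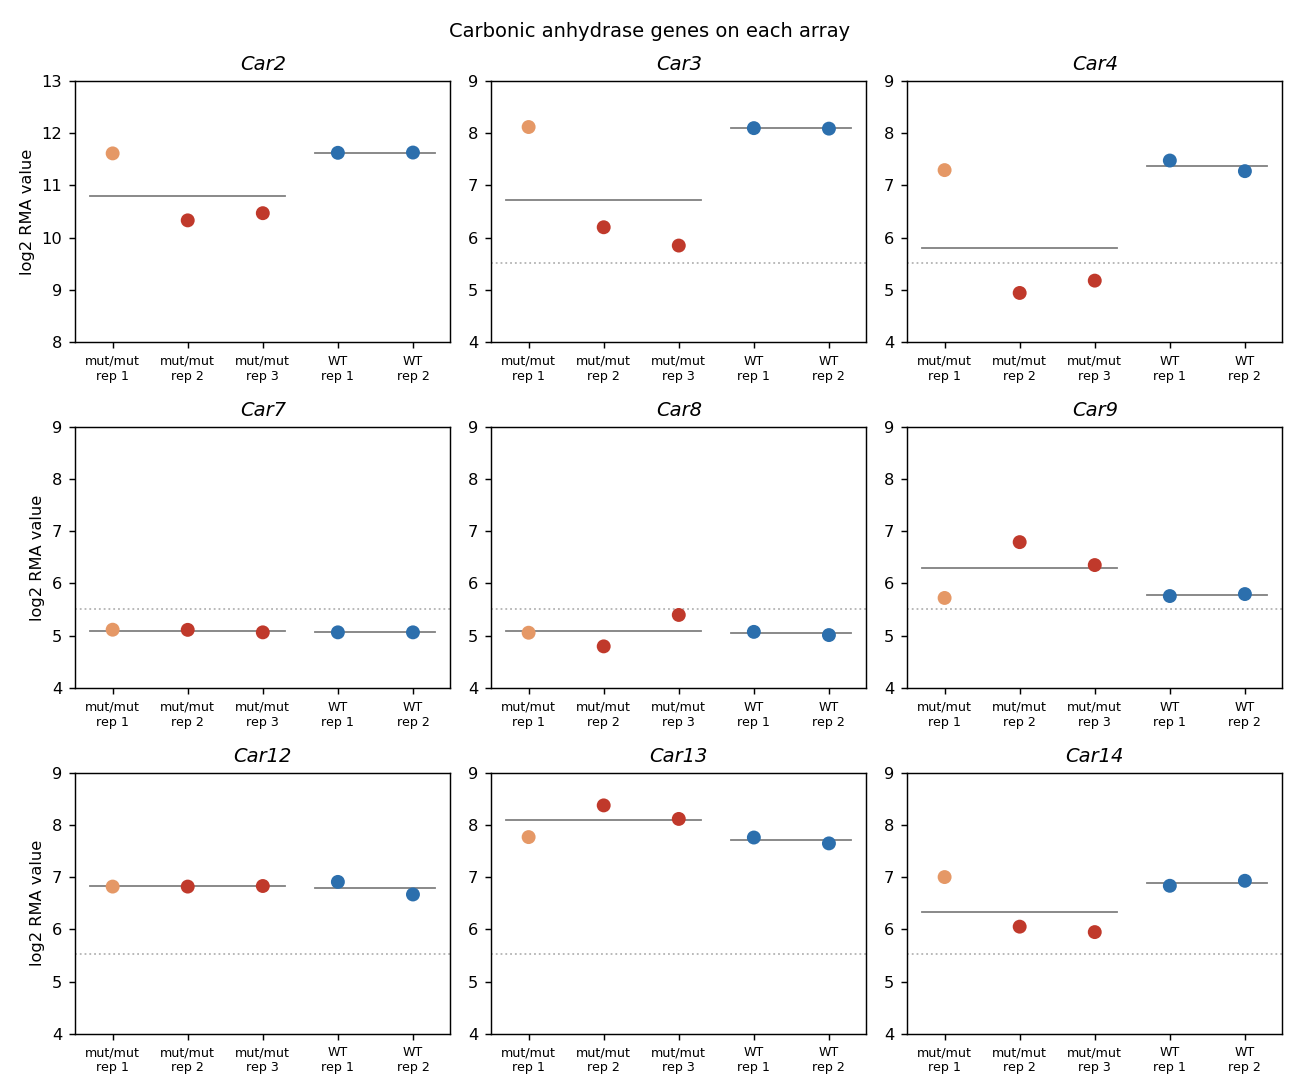
Log2 RMA value (vertical axis) of each of the 9 members on the 3 Trip12 mut/mut arrays (orange and red points) and the 2 WT arrays (blue points). Grey lines are group means and the dotted line is the median of all probe sets, 5.52; each panel spans 5 log2 units, from 8 for Car2 and from 4 elsewhere. On replicates 2 and 3 Car2, Car3, Car4 and Car14 lie below both WT arrays, while the array labelled replicate 1 lies with WT.

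At the cell surface, Car4, an enzyme held to the outer membrane face by a glycolipid anchor, had the lowest values relative to WT of the family, averaged over replicates 2 and 3. It read 7.29, 4.94 and 5.18 on the arrays labelled Trip12 mut/mut replicates 1, 2 and 3, against 7.48 and 7.27 in WT. The array labelled replicate 1 lay within the WT range, and the other mutant arrays lay far below it. Replicates 2 and 3 were below the median of all probe sets, 5.52, so the signal there may be background and the size of the difference is not settled. With the array labelled replicate 1 left out, the difference was -2.32 (SE 0.13), with a limma adjusted p of 0.0785 over all genes and 0.0391 in the reduced comparison, which Car4 entered only through the group where it is high. The second Car4 probe set, with a WT mean of 7.49, read 7.37, 4.43 and 4.46 on mutant replicates 1, 2 and 3, against 7.55 and 7.43 in WT. It too was below 5.52 on replicates 2 and 3, and the 2 Car4 probe sets gave the same direction.

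Car14, a transmembrane isozyme, showed a smaller decrease. It read 7.0, 6.05 and 5.95 on mutant replicates 1, 2 and 3, against 6.83 and 6.93 in WT. The array labelled replicate 1 was the highest of the 5, and replicates 2 and 3 were the lowest. Without the array labelled replicate 1 it was at -0.88 relative to WT (SE 0.07), a 1.84-fold lower signal (limma adjusted p = 0.0785 over all genes, 0.042 in the reduced comparison). Car14 had a single probe set, of a kind that can match several transcripts.

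Car9, a transmembrane isozyme known as a target of hypoxia-inducible factors, had higher values on replicates 2 and 3. It read 5.72, 6.79 and 6.35 on mutant replicates 1, 2 and 3, against 5.76 and 5.80 in WT. Replicate 2 was 2.02-fold and replicate 3 was 1.49-fold the WT mean, and the array labelled replicate 1 lay just below both WT arrays. The difference was 0.51 over 5 arrays (SE 0.33, limma adjusted p = 0.748) and 0.79 without the array labelled replicate 1 (SE 0.18). It did not pass there either, with a limma adjusted p of 0.149 over all genes and 0.0777 in the reduced comparison. Replicates 2 and 3 differed from each other by 0.44, against 0.04 between the WT arrays.

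Car12, another transmembrane isozyme, read 6.82, 6.82 and 6.83 on mutant replicates 1, 2 and 3, against 6.91 and 6.67 in WT. The mutant arrays lay between the WT arrays, and the difference was 0.03 over 5 arrays and 0.04 without the array labelled replicate 1 (SE 0.10). The 2 further Car12 probe sets were dim, with WT means of 3.60 and 3.47.

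The promoters of Car4, Car14 and Car9 are shown because these surface isozymes differed between replicates 2 and 3 and WT in opposite directions. Each is the stretch from 250 bases before to 50 bases after an annotated start site, from RefSeq in build GRCm38.p6, written 5′ to 3′ on the gene's strand. The table held promoters for 5 of the 9 members. Capitals mark the letters ACGTG, or CACGT where they are read from the opposite strand, the core of sites that hypoxia-inducible factors bind. The E-box CACGTG contains these letters.
Car4, chr11:84957504-84957803, plus strand: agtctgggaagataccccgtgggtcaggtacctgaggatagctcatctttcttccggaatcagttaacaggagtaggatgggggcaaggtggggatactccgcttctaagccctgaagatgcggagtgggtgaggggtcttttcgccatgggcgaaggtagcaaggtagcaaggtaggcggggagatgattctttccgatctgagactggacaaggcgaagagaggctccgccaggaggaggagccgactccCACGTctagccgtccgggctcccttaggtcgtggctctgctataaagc
Car14, chr3:95904636-95904935, minus strand: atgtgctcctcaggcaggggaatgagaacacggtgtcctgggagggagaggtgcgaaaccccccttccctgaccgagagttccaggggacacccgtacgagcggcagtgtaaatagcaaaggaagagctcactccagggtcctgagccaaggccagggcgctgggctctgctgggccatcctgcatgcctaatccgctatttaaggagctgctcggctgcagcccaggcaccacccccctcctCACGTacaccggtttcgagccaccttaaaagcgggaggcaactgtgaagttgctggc
Car9, chr4:43506776-43507075, plus strand: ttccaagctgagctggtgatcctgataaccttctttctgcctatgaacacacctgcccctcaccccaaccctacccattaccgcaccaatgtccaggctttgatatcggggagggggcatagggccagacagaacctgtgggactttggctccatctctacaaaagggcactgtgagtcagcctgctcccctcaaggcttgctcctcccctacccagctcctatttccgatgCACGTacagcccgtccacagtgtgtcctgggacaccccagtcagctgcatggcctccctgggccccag
In Car9 the letters began 18 bases before the start site, in Car14 7 bases before it, and in Car4 at base 3 after it. Over both strands, 3 of the 7 promoters of the members held them, against 2 of the 8 promoters of the other carbonic anhydrase genes in the table and 19.6% of 32851 promoters of this length. The 3 promoters of Car7 and the promoter of Car12 did not hold these letters. A match describes the sequence only, and here it occurred in genes with higher and with lower signal.

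Among the cytosolic isozymes, Car3 had the largest decrease on replicates 2 and 3. Car3 has low catalytic activity and is abundant in muscle, fat and liver. It read 8.12, 6.20 and 5.85 on mutant replicates 1, 2 and 3, against 8.10 and 8.09 in WT. The array labelled replicate 1 lay just above both WT arrays, and the other mutant arrays lay well below. The signal was 3.71-fold lower on replicate 2 and 4.74-fold lower on replicate 3 than the WT mean. With the array labelled replicate 1 left out, the difference was -2.07 (SE 0.14), the 12th lowest of all genes (limma adjusted p = 0.0785, and 0.0414 in the reduced comparison). Of the other 3 Car3 probe sets, the one with a WT mean of 5.46 read 5.50, 4.60 and 4.61 on mutant replicates 1, 2 and 3, against 5.49 and 5.42 in WT. Its difference of -0.86 without the array labelled replicate 1 was smaller than that of the brighter probe set, and the remaining 2, with WT means of 4.83 and 2.69, gave -0.40 and -0.12.

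Car2, the cytosolic isozyme with high turnover, known from red cells, bone and kidney, read 11.61, 10.33 and 10.47 on mutant replicates 1, 2 and 3, against 11.63 and 11.63 in WT. Here the 3 mutant arrays lay below both WT arrays, the one labelled replicate 1 at -0.01 relative to the WT mean. Replicates 2 and 3 were 2.46-fold and 2.23-fold lower than the WT mean. With the array labelled replicate 1 left out, the difference was -1.23 (SE 0.07), with a limma adjusted p of 0.0785 over all genes and 0.0413 in the reduced comparison. Car2 was represented by 1 probe set.

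Car13, a further cytosolic isozyme, was higher. Its brightest probe set read 7.77, 8.37 and 8.11 on mutant replicates 1, 2 and 3, against 7.76 and 7.64 in WT. The 3 mutant arrays lay above both WT arrays, the one labelled replicate 1 at 0.06 relative to the WT mean. The difference was 0.38 over 5 arrays (SE 0.20, limma adjusted p = 0.748) and 0.54 without the array labelled replicate 1 (SE 0.12, adjusted p = 0.143, and 0.0823 in the reduced comparison). The Car13 probe sets disagreed: the one with a WT mean of 6.04 gave -0.06 and the one at 4.77 gave 0.51 without that array, and neither passed. Car7, a cytosolic isozyme of the nervous system, read 5.12, 5.11 and 5.06 on mutant replicates 1, 2 and 3, against 5.06 and 5.06 in WT. It lay below the median of all probe sets on each array, so its level cannot be told from background here. Its WT values were tied. Its difference was 0.03 over 5 arrays and 0.02 without the array labelled replicate 1.

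Car8, which lacks catalytic activity and binds the inositol trisphosphate receptor, was also below that median on each array. It read 5.06, 4.80 and 5.40 on mutant replicates 1, 2 and 3, against 5.07 and 5.01 in WT. Replicate 2 lay below WT and replicate 3 above it, 0.60 apart, and the difference was 0.04 over 5 arrays and 0.05 without the array labelled replicate 1, smaller than its SE of 0.24.

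**Figure D2:**
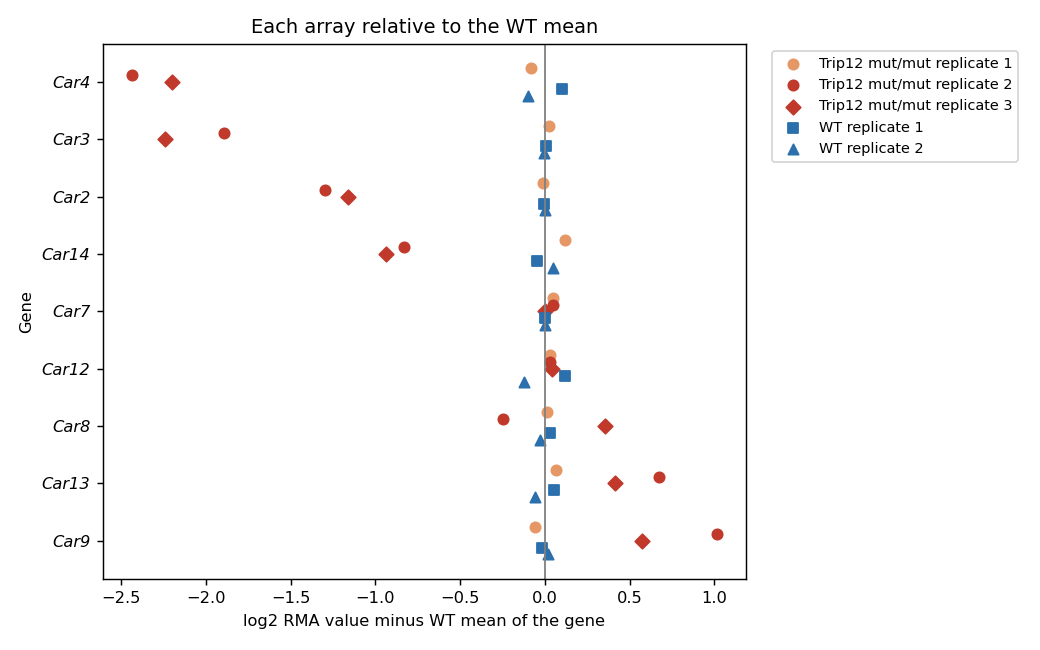
Log2 RMA value of each array minus the WT mean of the same gene (horizontal axis), with genes ordered by the mean of Trip12 mut/mut replicates 2 and 3. Points of the array labelled replicate 1 (orange) lie within 0.12 of 0, and those of replicates 2 and 3 (red) spread from -2.43 for Car4 to 1.01 for Car9; blue symbols are the WT arrays.

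The differences of the members spread widely around a median near 0. The median difference of the 9 members was 0.03 over 5 arrays and 0.02 without the array labelled replicate 1, beside medians of 0.02 and 0.02 over all genes. The median absolute difference without that array was 0.79 for the members, 0.16 for the 7 other carbonic anhydrase genes and 0.13 over all genes. The value of the members is thus not one of the whole family. Of the 9 members 3 (Car2, Car3 and Car4) were at least 2-fold lower there and 0 were at least 2-fold higher, where 0.544% and 0.363% of all genes were. Over 5 arrays the groups did not overlap for Car2, which was lower, and Car13, which was higher. Both gaps were narrow at the array labelled replicate 1. It read 11.614 for Car2 against 11.625 on the nearest WT array, and 7.766 for Car13 against 7.757. The other Car13 probe sets overlapped over 5 arrays. For 6.29% of all genes the mutant arrays lay below WT without overlap and for 5.73% above it. Without the array labelled replicate 1, 4 members lay below WT without overlap and 2 above it, where 17.5% and 26.7% of all genes did so. Since Car3 and Car4 were known beforehand to be among the lowest genes, these counts are a description.

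The 7 other carbonic anhydrase genes gave no comparable values. Car6 had 1 array above the median of all probe sets, and the other 6 had none, so their levels may be background. Their differences without the array labelled replicate 1 lay between -0.25 and 0.26. Car15, a surface isozyme, read 5.26, 5.15 and 5.26 on mutant replicates 1, 2 and 3, against 5.42 and 5.49 in WT, which left the groups apart. It was the only one of the 7 with an unadjusted p below 0.05 over 5 arrays, and did not pass (difference -0.24, SE 0.06, limma adjusted p = 0.748). Car5b, a mitochondrial isozyme, read 4.07, 4.32 and 4.33 on mutant replicates 1, 2 and 3, against 4.03 and 4.11 in WT. The secreted Car6 read 5.27, 5.27 and 5.57, against 5.22 and 5.16 in WT, so its groups were apart too, with the mutant arrays higher. Over 5 arrays the mutant arrays lay below WT without overlap for 6.29% of all genes and above it for 5.73%. Without the array labelled replicate 1, 3 of the 7 lay above WT without overlap and 1 below it, where 26.7% and 17.5% of all genes did. Car1, Car5a, Car10 and Car11 differed by between -0.16 and 0.08 without the array labelled replicate 1.

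**Figure D3:**
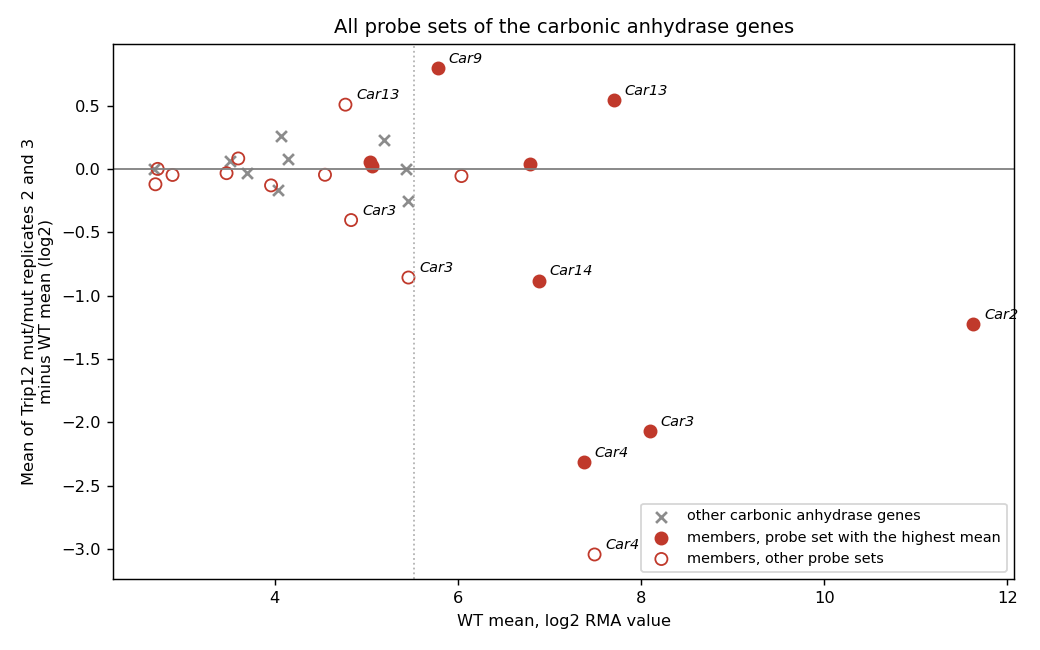
Difference of each carbonic anhydrase probe set, mean of Trip12 mut/mut replicates 2 and 3 minus WT mean (vertical axis, log2), against its WT mean (horizontal axis, log2 RMA value). Filled red points are the chosen probe sets of the members, open red points their other probe sets, grey crosses the other family genes, and the dotted line the median of all probe sets, 5.52. Both Car4 probe sets lie below -2 and read under that median on replicates 2 and 3, and the Car3 probe sets differ less from 0 the lower their WT mean.

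Car13, Car1, Car3 and Car2 follow each other in this order among the measured genes of chromosome 3, which allowed neighbours to be set side by side. The order came from a RefSeq table of assembly GRCm38.p6. Relative to the WT mean, replicates 2 and 3 stood at 0.67 and 0.41 for Car13, at 0.02 and -0.08 for the dim Car1, at -1.89 and -2.24 for Car3 and at -1.30 and -1.16 for Car2. Adjacent Car3 and Car2 were thus lower on both arrays, and Car13 at the other end of the cluster was higher by its brightest probe set. The other Car13 probe sets, with WT means of 6.04 and 4.77, gave -0.06 and 0.51 without the array labelled replicate 1. Of the nearest measured genes outside, Rbis, a ribosome biogenesis factor gene beside Car13, read 11.38, 10.88 and 11.00 on mutant replicates 1, 2 and 3, against 11.39 and 11.45 in WT. It did not pass over 5 arrays (limma adjusted p = 0.748) or in the reduced comparison (0.0585). E2f5, a cell cycle transcription factor gene, differed by -0.07 without that array, and A930001A20Rik and Sirpb1a beyond Car2 were dim and differed by -0.02 and 0.08.

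**Figure D4:**
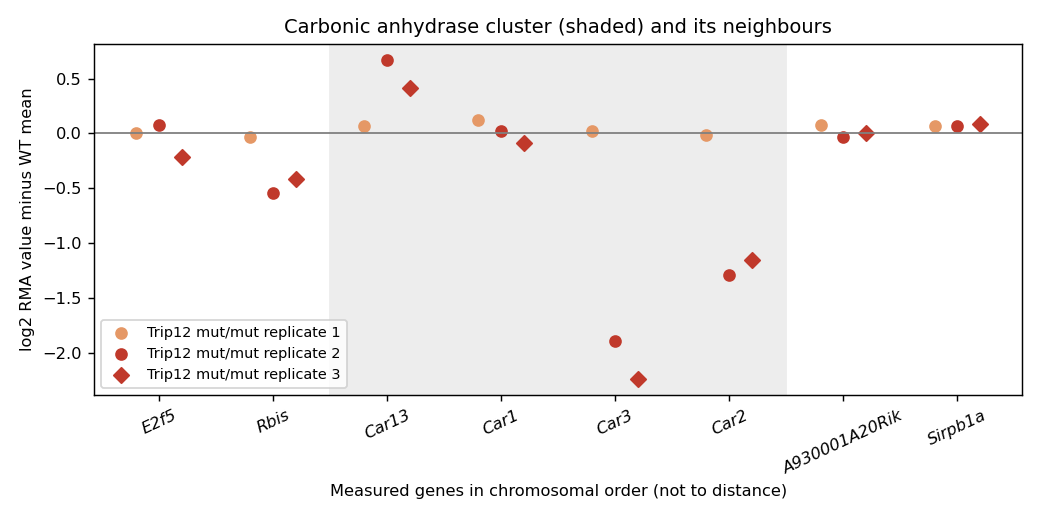
Log2 RMA value minus the WT mean (vertical axis) on each Trip12 mut/mut array, for the measured genes of the carbonic anhydrase cluster (shaded) and the nearest 2 measured genes on each side, in chromosomal order and not to distance. Each gene is shown by its probe set with the highest mean. By these, Car3 and Car2 lie below 0 and Car13 above 0 on replicates 2 and 3, and the array labelled replicate 1 lies near 0.

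Carbonic anhydrases work with transporters that carry bicarbonate, protons and lactate. A list of 25 genes for such transporters and related membrane proteins had 23 measured here. The related ones are Bsg, Aqp1, Rhag, Rhbg and Rhcg. Over 5 arrays 0 of 23 passed. In the reduced comparison 1 of the 12 tested rose and 0 fell, where 3.29% and 1.34% of the genes tested did. That gene was Bsg, encoding basigin, the partner of monocarboxylate transporters, which read 11.43, 11.97 and 11.92 on mutant replicates 1, 2 and 3, against 11.41 and 11.47 in WT (difference 0.50, SE 0.07, limma adjusted p = 0.049). The anion exchanger genes Slc4a2 and Slc4a3 differed by 0.56 and 0.40 without that array, the sodium bicarbonate cotransporter gene Slc4a4 by 0.38, Slc4a11 by 0.39 and the sodium proton exchanger gene Slc9a5 by 0.42, and none of these 5 passed. On replicates 2 and 3, 7 of the 23 lay above WT without overlap and 2 below it, where 26.7% and 17.5% of all genes did. The 2 were the lactate transporter gene Slc16a1 (-0.32) and the dim Slc26a3 (-0.07), named after their values were seen. The median of the 23 was 0.06, beside 0.02 over all genes.

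Hypoxia response genes were listed because Car9 and Car12 are known hypoxia targets. Over 5 arrays 0 of 17 passed, and in the reduced comparison 3 of 17 rose and 0 fell, where 3.29% and 1.34% of the genes tested did. The 3 were Ero1a, an endoplasmic reticulum oxidase gene (1.02), P4ha2, a collagen prolyl hydroxylase gene (0.78), and Ndrg1 (0.77), with limma adjusted p-values of 0.042, 0.042 and 0.0454. Adm (0.62), Egln1 (0.57) and Vegfa (0.55) had positive differences and did not pass. These 6 genes were named because their absolute differences were the largest of the list. Slc2a1 (0.13), Pgk1 (0.05) and Ldha (0.01), named after their values were seen, differed little. On replicates 2 and 3, 10 of the 17 lay above WT without overlap and 2 below it, where 26.7% and 17.5% of all genes did. The 2 were Ankrd37 (-0.49) and Pdk1 (-0.31), named after their values were seen, and neither passed. The median of the 17 was 0.26, beside 0.02 over all genes and 0.53 for the 17 fibroblast markers. Of those fibroblast markers 5 rose and 0 fell in the same comparison (3.29% and 1.34% of the genes tested), and 13 of 17 lay above WT without overlap on replicates 2 and 3 (26.7% of all genes). Each of the 17 was above 5.52 on all 5 arrays. Of the 10 embryonic stem cell markers, Utf1 fell (-0.80, limma adjusted p = 0.0422) and 0 rose. Esrrb, named after its values were seen, was higher by 0.57 and just missed the threshold (limma adjusted p = 0.0501). On replicates 2 and 3, 2 of the 10 lay above WT without overlap and 5 below it, where 26.7% and 17.5% of all genes did. The part of the fibroblast markers in these values and in those of the members was not tested.

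The defining markers of 3 tissues known for carbonic anhydrases were also read. The 4 measured erythroid markers lay below the median of all probe sets on each array, with means of 4.37, 4.26 and 4.14 on mutant replicates 1, 2 and 3, against 4.37 and 4.34 in WT. Of 5 skeletal muscle markers, Acta1 and Des were above it on each array, and the mean of the 5 was 6.20, 6.26 and 6.13 on the mutant arrays, against 6.35 and 6.17 in WT. Of these 5, Myh3, an embryonic myosin gene named after its values were seen, read 5.70, 5.42 and 5.28 on the mutant arrays, against 6.10 and 5.78 in WT, so the mutant arrays lay below both WT arrays. Its difference over 5 arrays was -0.47 (SE 0.17, limma unadjusted p = 0.0475, adjusted p = 0.748). On replicates 2 and 3 Myh3 was below 5.52, so it met the filter of the reduced comparison only through its WT arrays. Without the array labelled replicate 1 the differences were -0.59 for Myh3 and -0.09 for Des. They were positive for Acta1 (0.19), Ckm (0.11) and the dim Myog (0.06), and Acta1 lay above both WT arrays on replicates 2 and 3. The 4 markers of gastric and kidney epithelium averaged 4.15, 4.11 and 4.0, against 4.24 and 4.09 in WT. In the reduced comparison 0 of 4 skeletal muscle markers passed, and no erythroid or gastric and kidney marker met the filter.

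**Figure D5:**
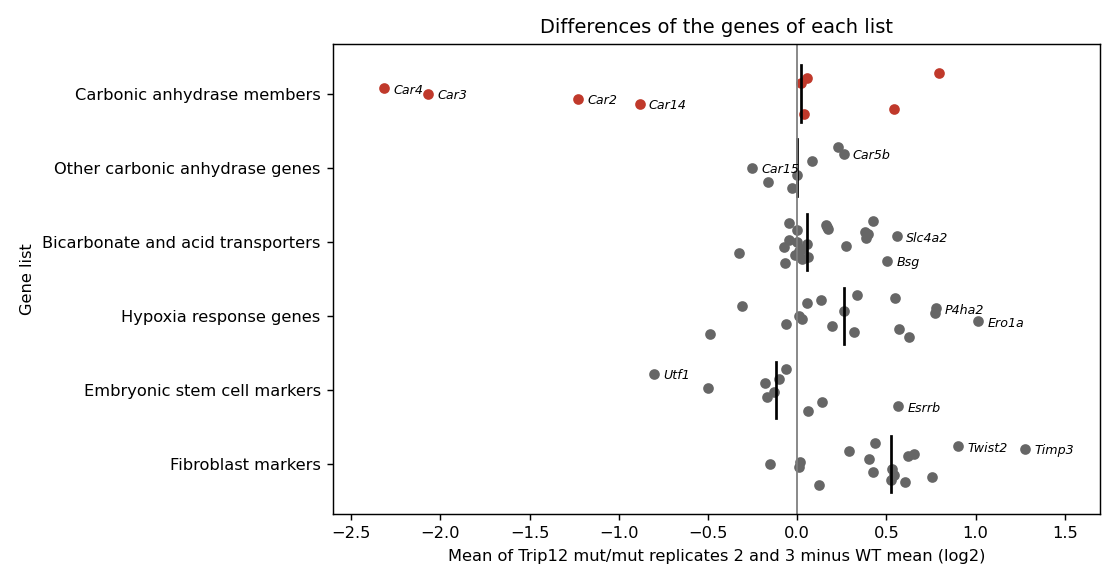
Difference of each gene, mean of Trip12 mut/mut replicates 2 and 3 minus WT mean (horizontal axis, log2), in 6 gene lists (rows; vertical position within a row only separates points). Black bars are list medians, 0.02 for the members, 0.26 for hypoxia response genes and 0.53 for fibroblast markers. Car4, Car3, Car2 and Car14 stand at the low end of the plot.

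Genes with the most similar values over the 5 arrays were found for Car4 and Car3 by the root mean square distance between values minus the WT mean, among 11651 genes with at least 2 arrays above 5.52. Nearest to Car4 were Fndc3c1 at a distance of 0.0994, the tight junction gene Cldn7 at 0.122, the transcription factor gene Otx2 at 0.128, Dppa3 at 0.157 and the splicing regulator gene Esrp1 at 0.193. On replicates 2 and 3 these 5 stood between -2.46 and -2.05, where Car4 stood at -2.43 and -2.20. Nearest to Car3 were the kinase gene Pim2 at 0.0675, the Wnt pathway factor gene Lef1 at 0.0686, Irs4 at 0.0911, the transcription factor gene Zic2 at 0.114 and the neurofilament gene Nefl at 0.117. For Car3 these genes stood between -2.39 and -1.73 on replicates 2 and 3. The measure ranks likeness on 5 arrays only, and for Car4 it rests on values below 5.52 on replicates 2 and 3.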

How the data were processed

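Transcripts of 3 Trip12 mut/mut and 2 WT samples were measured, 1 array each. The deposited log2 values were made by the authors with RMA, per the submitters' processing notes; no version is stated there. The 5 array medians (5.51 to 5.55) were nearly equal, which hides any shift common to all transcripts. RMA gives no detection call, and the number of arrays limits precision. Equal values on several arrays occur among dim and bright probe sets, as for Sox2 at 11.53 on both WT arrays. Probe sets marked _s_at can match several transcripts, and those chosen for Car4, Car7 and Car14 are of this kind.

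From 45101 probe sets 64 controls were removed. Of the rest 34945 had 1 symbol, 932 several and 9160 none; 34741 symbols were updated by gene number through GRCm38.p6. The test was limma's (version 3.58.1, R 4.3.3; lmFit and eBayes with genotype alone, two-sided), and p-values were adjusted by Benjamini-Hochberg over all genes. The procedure was tested on simulated data. Members and lists were chosen with earlier results of these data known. Named were the members, the other family genes, up to 6 genes of the transporter and hypoxia lists with the largest absolute difference without the array labelled replicate 1, 5 genes nearest to Car4 and to Car3, and neighbours of the cluster. Figures were drawn with matplotlib 3.10.9.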

Additional observations from a re-analysis of the deposited data

How the results depend on the processing

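Alternatives were quantile normalisation, centred array medians, removal of dim probe sets, array weights, robust estimation with a variance trend, a replicate block, averaging a gene's probe sets, choosing its probe set of largest SD, each array left out, and the array labelled Trip12 mut/mut replicate 1 left out together with dim probe sets. Only the last changed a count of calls, with 4 members and 539 genes called, against 0 and 0 over 5 arrays; that array was left out because of its own values, and fewer genes were tested. With each array left out in turn both counts stayed at 0. Of 122 member differences under the alternatives, 113 kept their sign and their side of the threshold, 4 passed under that last setting (Car2, Car3, Car14 and, admitted by its WT arrays alone, Car4), and 5 turned sign, none of which passed. These were Car7 with the probe set of largest SD (-0.013), and Car12 with the same choice (-0.024) and without WT replicate 2 (-0.09). The others were Car8 with the replicate block (-0.12) and without Trip12 mut/mut replicate 3 (-0.12). Both Car8 values are the same estimate, since only a mutant array bears number 3 and the block takes it out of the genotype difference. These settings gave equal differences for the other members too. Removing dim probe sets, or robust estimation with a trend, leaves a member's difference unchanged and can alter only its p-value. The 122 differences are thus not independent checks. Why the 5 differences turned sign was not tested. With each array left out in turn, Car4 lay between -2.32 and -1.14, Car3 between -2.07 and -0.93, Car2 between -1.23 and -0.59, Car14 between -0.88 and -0.36, Car12 between -0.086 and 0.15, Car8 between -0.12 and 0.18, Car13 between 0.24 and 0.54 and Car9 between 0.26 and 0.79. Replicate numbers 1 and 2 are shared between the groups, and the labels give the block no basis beyond the number. Deviations of same-numbered arrays from their group means correlated at -0.05 and -0.08. Those of the mutant arrays include the split of replicate 1 from the others. The correlations therefore cannot show whether same-numbered arrays were handled together. With the replicate block 0 members and 0 genes were called. With array weights 5 members had an unadjusted limma p below 0.05, as did 1820 of 18193 genes, against 214 genes without weights. The smallest adjusted p with weights was 0.445. Each WT array had a weight of 3.85, and mutant replicates 1, 2 and 3 had 0.34, 0.27 and 0.72.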
